A study of Mus musculus with 9 samples.

Results

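Cadherin genes were followed in Caki cells carrying an empty vector or one of a pair of YAP1 constructs. The members were the rows of the count table named CDH1, CDH2, CDH3, CDH4, CDH6, CDH11, CDH13 and CDH16, which made 8 genes of 58735. Of these, 7 had enough reads to enter the test with 15492 genes in all, and CDH4 did not. Caki is an established human cell line from a clear cell carcinoma of the kidney. The cells had received retroviral vectors and were selected with G418, a treatment that all groups share. The MX group held the empty control vector and the YAP1 group a vector for the wild-type protein. The YAP1-S127A vector encoded YAP1 with alanine in place of serine at residue 127, which the labels call constitutively active. Each group had 3 libraries. Whether a group was a pool of cells or a clone, and whether its libraries came from separate cultures, is not stated in the labels. The p-values therefore reflect the spread among the sequenced libraries alone, and that spread may be technical. Mouse is given as the organism, but the table lists human Ensembl genes and is read here as human.

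Cadherins are calcium-dependent adhesion proteins. The classical members span the membrane, bind like molecules on the next cell and hold the actin cytoskeleton through catenins. Epithelial cells typically carry E-cadherin (CDH1). The proximal tubule of the kidney, the segment clear cell carcinoma resembles, carries N-cadherin (CDH2) and cadherin-6 (CDH6). CDH16 is known as the kidney-specific cadherin, and CDH13 has no cytoplasmic part and is held in the membrane by a lipid anchor. YAP1 is a transcriptional coactivator of the Hippo pathway, which junctions between cells help to control.

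Total counts ran from 15789722 to 24811150 per library, so that 3 counts stood for 0.107 to 0.229 CPM (read counts scaled to a common library size by TMM). Reads of the mitochondrial genome made up 1.9 to 6.60% of the counts in MX, 3.50 to 11.4% with YAP1 and 7.40 to 29.6% with YAP1-S127A, with YAP1-S127A replicate 2 the lowest of its group. The shares of MX and YAP1-S127A did not overlap, so fits with the mitochondrial share as covariate cannot fully tell it from that construct. MX replicate 1 stood apart in the number of genes with a read, 25491 against 22115 and 22738 in the other MX libraries. YAP1 itself, the introduced gene, averaged 99.9 ± 8.64 CPM (SD, n = 3) in MX. It averaged 1220 ± 268 CPM in the YAP1 libraries and 688 ± 55 CPM in the YAP1-S127A libraries. Endogenous and introduced transcripts are not separated in the table. Of the renal line markers, PAX8 (at least 228 CPM), KRT8 (at least 1390 CPM) and VIM (at least 1855 CPM) were high in every library. PAX2, CA9 and LRP2 never passed 0.933 CPM, and NDUFA4L2 stood at 0.311 to 3.02 CPM. Against MX, NDUFA4L2 was lower with YAP1 (log2 fold change -1.96, edgeR adjusted p = 0.00862) and YAP1-S127A (-1.81, 0.00753). KRT8 was higher with YAP1-S127A than in MX (0.65, adjusted p = 0.0121). KRT19 was lower with YAP1-S127A than with YAP1 (-0.67, adjusted p = 0.0271). Of the endothelial markers, CDH5 had at most 2 counts in a library and PECAM1 10 to 47. Of the leukocyte markers, PTPRC had at most 4 counts, but CD74 stood at 133 to 295 CPM and was lower with YAP1-S127A than in MX (log2 fold change -0.66, edgeR adjusted p = 0.00271). The summed level of 9 fibroblast markers was 774 to 1308 CPM in MX, 1337 to 1689 CPM in the YAP1 group and 2147 to 3958 CPM in the YAP1-S127A group. Of its 5 tested genes, 4 were higher with YAP1-S127A than in MX: COL1A1, which made up most of the sum (log2 fold change 1.60, edgeR adjusted p = 0.000103), COL1A2 (0.741 to 80.5 CPM, 6.68, adjusted p = 0.000858), LUM (0.871 to 9.53 CPM, 3.53, adjusted p = 8.18e-08) and PDGFRB (30.2 to 46.8 CPM, 0.63, adjusted p = 0.00579). The call of PDGFRB was lost without YAP1-S127A replicate 2 (0.0568) and with total-count scaling (0.0753). THY1, PDGFRA and POSTN had at most 11, 5 and 1 counts in a library. The part of these marker differences in the cadherin results was not tested.

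The summed cadherin level and its make-up differed between the groups, and the lower sum came with CDH6. Levels of different genes are set side by side as CPM per kilobase of gene length, with the length deposited in the table. Whether that is the length of the transcripts in these cells was not tested. The 8 genes together summed to 70.2 ± 4.79 CPM per kilobase (SD, n = 3) in MX, 46.3 ± 1.06 with YAP1 and 35.7 ± 3.38 with YAP1-S127A. Without CDH6 the other 7 summed to 22.9 ± 3.24, 23.9 ± 1.09 and 25.4 ± 4.29, with overlapping libraries. In bulk RNA, fewer cells with a transcript and less transcript per cell cannot be told apart. In MX the order was CDH6 at 47.3 CPM per kilobase, CDH2 at 14.0, CDH1 at 4.01, CDH16 at 3.24, CDH3 at 0.934, CDH13 at 0.428, CDH11 at 0.241 and CDH4 at 0.0117. Libraries of neighbours in this order overlapped for CDH1 and CDH16 and for CDH13 and CDH11. With YAP1, CDH6 still led at 22.4 CPM per kilobase and CDH2 followed at 13.2, but CDH13 came next at 3.63. Behind it came CDH1 at 2.55, CDH16 at 2.24 and CDH3 at 2.02, with overlap between CDH1 and CDH16 and between CDH16 and CDH3. With YAP1-S127A, CDH2 led at 15.4 CPM per kilobase, above CDH6 at 10.2 and CDH13 at 5.35. This lead of CDH2 rests on the deposited lengths, since before that scaling CDH6 averaged 127 CPM and CDH2 76.1 CPM in the YAP1-S127A group. CDH16 at 2.36 lay above CDH1 at 1.05, which overlapped with CDH3 at 0.987. CDH11 and CDH4 were the lowest of the 8 in both construct groups.

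As shares of the summed level, CDH6 went from 67.5% ± 2.79 (SD, n = 3) in MX to 48.4% ± 2.34 with YAP1 and 29.0% ± 5.62 with YAP1-S127A. CDH2 took 19.9% ± 2.08, 28.5% ± 4.84 and 42.8% ± 3.83 in the same groups, although its own level passed no test of a difference, as given further on. CDH13 took 0.620% ± 0.219 in MX, 7.84% ± 2.23 with YAP1 and 15.0% ± 1.86 with YAP1-S127A. These shares are taken within each library and are given as a description, with no test.

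**Figure D1:**
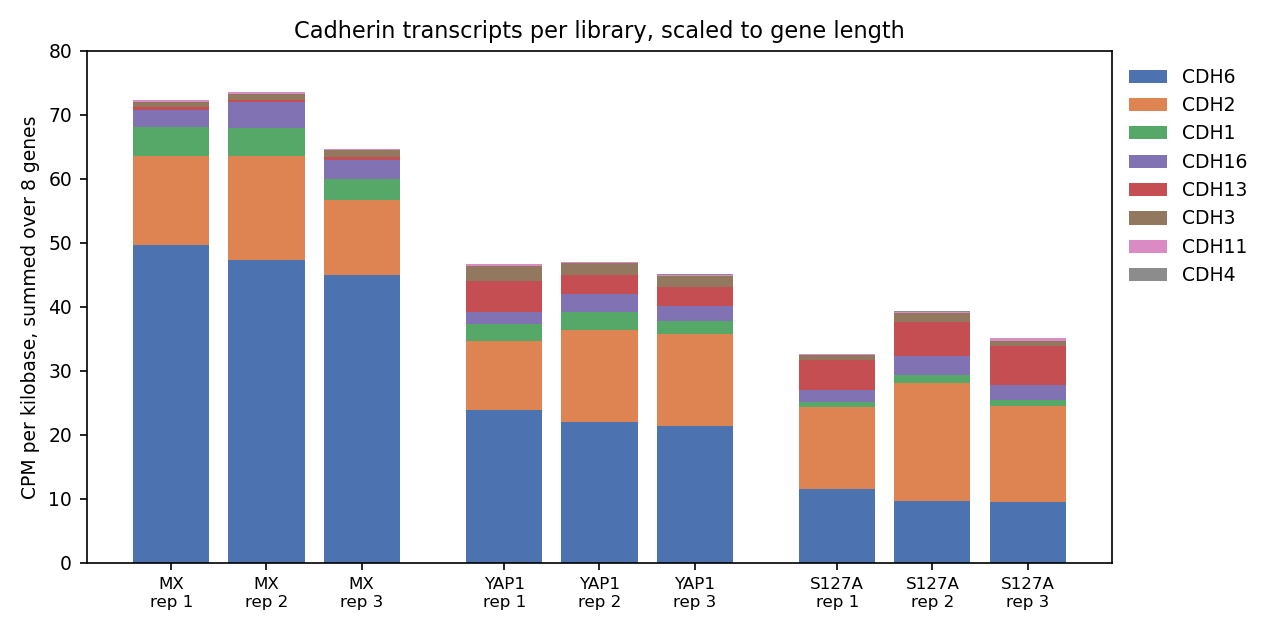
Stacked bars give the level of each of the 8 cadherins in each library, in CPM per kilobase of gene length, for MX, YAP1 and YAP1-S127A (S127A). The full bars lie between 64.7 and 73.5 in MX, 45.1 and 47.0 with YAP1 and 32.6 and 39.3 with YAP1-S127A, and the CDH6 segment shortens across the groups while the CDH13 segment grows.

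The cadherins of the kidney tubule come first. CDH6 (ENSG00000113361), cadherin-6 of the proximal tubule, is a plus-strand gene of chromosome 5 (31193750 to 31329146). No source used here gives the build behind the table's positions. Its MX libraries held 616, 585 and 556 CPM (replicates 1, 2 and 3), its YAP1 libraries 295, 273 and 264 CPM, and its YAP1-S127A libraries 142, 119 and 118 CPM. No library of one group came near those of the next, so that the 3 groups formed separate steps. CDH6 fell 2.11-fold with YAP1 by edgeR's quasi-likelihood F test, adjusted by Benjamini-Hochberg over all genes tested (log2 fold change -1.08, SE 0.12, adjusted p = 6.88e-06). It fell 4.62-fold with YAP1-S127A (-2.21, SE 0.12, adjusted p = 4.03e-10). Between the constructs it was 2.19-fold lower with YAP1-S127A (-1.13, SE 0.12, adjusted p = 3.32e-05).

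CDH16 (ENSG00000166589), the kidney-specific cadherin with a short cytoplasmic tail, is a minus-strand gene of chromosome 16 (66908122 to 66918984). Its MX libraries held 10.2, 14.9 and 10.5 CPM, its YAP1 libraries 6.37, 9.80 and 8.38 CPM, and its YAP1-S127A libraries 6.79, 10.5 and 8.62 CPM. All YAP1 libraries lay below all MX libraries, while one YAP1-S127A library, replicate 2, reached into the MX range. In edgeR's test the log2 fold change against MX was -0.52 with YAP1 (95% interval -0.94 to -0.11, adjusted p = 0.130) and -0.44 with YAP1-S127A (-0.86 to -0.02, adjusted p = 0.138). Between the constructs it was 0.09 (-0.34 to 0.51, adjusted p = 0.919). CDH16 thus passed in no comparison. With libraries scaled to total counts the difference between YAP1-S127A and MX was called (-0.69, adjusted p = 0.00632), a scaling that moved the median of all genes by -0.28.

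The members of the epithelial pair differed in their course. CDH1 (ENSG00000039068), E-cadherin of adherens junctions, is a plus-strand gene of chromosome 16 (68737225 to 68835548). CDH3 (ENSG00000062038), P-cadherin, which is found in basal layers of epithelia, lies just before it on the same strand, from 68636189 to 68722616, with 14.6 kilobases between the genes.

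CDH1 stood at 27.2, 26.7 and 20.4 CPM in the MX libraries, at 17.2, 17.3 and 12.7 CPM in the YAP1 libraries and at 5.11, 8.18 and 6.09 CPM in the YAP1-S127A libraries. The groups did not overlap. CDH1 fell 1.57-fold with YAP1 (log2 fold change -0.65, SE 0.17, edgeR adjusted p = 0.0231), a call that was lost without MX replicate 2 (adjusted p = 0.0714) or YAP1 replicate 3 (adjusted p = 0.162). With YAP1-S127A it fell 3.81-fold (-1.93, SE 0.18, adjusted p = 3.60e-07). Against wild-type YAP1 it was 2.42-fold lower with YAP1-S127A (-1.28, SE 0.19, adjusted p = 0.000927). With YAP1-S127A replicate 2 as the only library of its group, that difference was -0.95 (adjusted p = 0.105), the lone library being assumed to vary like the others.

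CDH3 stood at 4.56, 6.11 and 6.80 CPM in the MX libraries, at 15.0, 11.3 and 11.4 CPM in the YAP1 libraries and at 4.88, 8.75 and 4.83 CPM in the YAP1-S127A libraries. Only the YAP1 libraries were high, all 3 of them above every library of the other groups, and MX and YAP1-S127A overlapped. CDH3 rose 2.17-fold with YAP1 (log2 fold change 1.11, SE 0.22, edgeR adjusted p = 0.00284). For YAP1-S127A against MX its log2 fold change was 0.08 (95% interval -0.39 to 0.56, adjusted p = 0.848). The constructs themselves differed, CDH3 being lower in YAP1-S127A (log2 fold change -1.03, SE 0.22, adjusted p = 0.0167). That call was lost without YAP1 replicate 1 (adjusted p = 0.117), YAP1-S127A replicate 1 (0.0665) or YAP1-S127A replicate 3 (0.139). The highest YAP1-S127A level was in replicate 2, the library of that group with the fewest mitochondrial reads. With the mitochondrial share as covariate the difference between the constructs was -0.57 (adjusted p = 0.327) and that between YAP1-S127A and MX 0.68 (adjusted p = 0.107), while the rise with YAP1 was 1.25 (adjusted p = 0.000122).

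The make-up of the epithelial pair also differed between groups. Per kilobase, CDH3 stood at 0.166 to 0.331 times CDH1 in the MX libraries, at 0.647 to 0.890 times with YAP1 and at 0.786 to 1.06 times with YAP1-S127A. The ratio was raised in both construct groups, with YAP1 through more CDH3 and less CDH1, and with YAP1-S127A through less CDH1.

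Next were the classical cadherins known from neural and mesenchymal cells, of which CDH2 is also carried by the proximal tubule. CDH2 (ENSG00000170558), N-cadherin, is a minus-strand gene of chromosome 18 (27950966 to 28177446). Levels were 68.8, 80.9 and 58.5 CPM in the MX libraries, 53.2, 71.4 and 71.3 CPM in the YAP1 libraries and 63.1, 91.0 and 74.0 CPM in the YAP1-S127A libraries. The 3 groups overlapped throughout. The log2 fold change was -0.09 for YAP1 against MX (95% interval -0.40 to 0.23, edgeR adjusted p = 0.820), 0.14 for YAP1-S127A against MX (-0.18 to 0.45, adjusted p = 0.594) and 0.22 between the constructs (-0.10 to 0.54, adjusted p = 0.609). These intervals leave room for a change in either direction but not for one as large as that of CDH6 or, with YAP1-S127A, that of CDH1. The ratio of CDH2 to CDH1 per kilobase, often read as the balance of N- to E-cadherin, was 3.15 to 3.78 in MX, 3.86 to 6.99 with YAP1 and 13.9 to 15.4 with YAP1-S127A. The ranges were separate, and of the pair only CDH1 passed the test. Within the YAP1 group the ratio also varied with CDH2. YAP1 replicates 1 and 2 had CDH1 at 17.2 and 17.3 CPM but ratios of 3.86 and 5.14.

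CDH11 (ENSG00000140937), OB-cadherin of mesenchymal and bone-forming cells, is a minus-strand gene of chromosome 16 (64943753 to 65126112). It was scarce, at 4.96, 2.90 and 1.80 CPM in the MX libraries, 3.37, 2.27 and 2.04 CPM in the YAP1 libraries and 1.98, 3.30 and 6.30 CPM in the YAP1-S127A libraries. Its counts per library ran from 26 to 139, and the highest MX and YAP1-S127A libraries were more than 2 times the lowest of their group. No comparison passed, with log2 fold changes of -0.34 (95% interval -1.22 to 0.53, edgeR adjusted p = 0.718), 0.28 (-0.58 to 1.14, adjusted p = 0.685) and 0.63 (-0.26 to 1.51, adjusted p = 0.597) in the order above. The groups overlapped, and the intervals were wider than those of any other tested member.

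CDH4 (ENSG00000179242), R-cadherin, first known from retina, is a plus-strand gene of chromosome 20 (61252426 to 61940617). It had 3, 0 and 4 counts in MX, 9, 9 and 5 counts with YAP1, and 2, 3 and 5 counts with YAP1-S127A. The library at 0 counts, MX replicate 2, allows up to 0.181 CPM, for counting error only. CDH4 did not pass the filter on low counts and was not tested. Without that filter edgeR gave it log2 fold changes of 2.00, 1.06 and -0.93 in the 3 comparisons. The unadjusted p was 0.0227, 0.267 and 0.268, and the adjusted p 0.269, 0.614 and 0.783.

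Against MX, the anchored member showed the largest fitted differences of the 7 tested. CDH13 (ENSG00000140945), T-cadherin, which has no cytoplasmic part and is known as a receptor of adiponectin, is a plus-strand gene of chromosome 16 (82626803 to 83800640). It stood at 4.56, 3.57 and 6.24 CPM in the MX libraries, against 54.4, 34.2 and 33.4 CPM in the YAP1 libraries and 52.2, 59.9 and 67.4 CPM in the YAP1-S127A libraries. All construct libraries lay far above all MX libraries, and YAP1 replicate 1 reached into the range of YAP1-S127A. CDH13 rose 8.35-fold with YAP1 (log2 fold change 3.06, SE 0.22, edgeR adjusted p = 3.32e-07) and 12.3-fold with YAP1-S127A (3.62, SE 0.22, adjusted p = 1.00e-08). Between the constructs the log2 fold change was 0.56 (95% interval 0.16 to 0.96, adjusted p = 0.183), which did not pass. Without YAP1 replicate 1 it was 0.82 and passed (adjusted p = 0.0227), and with no filter on low counts it was 0.55 and passed (adjusted p = 0.00546). Set against CDH6, which fell, CDH13 per kilobase was exceeded 80.5 to 148 times by CDH6 in the MX libraries, 4.90 to 7.21 times with YAP1 and 1.59 to 2.47 times with YAP1-S127A.

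**Figure D2:**
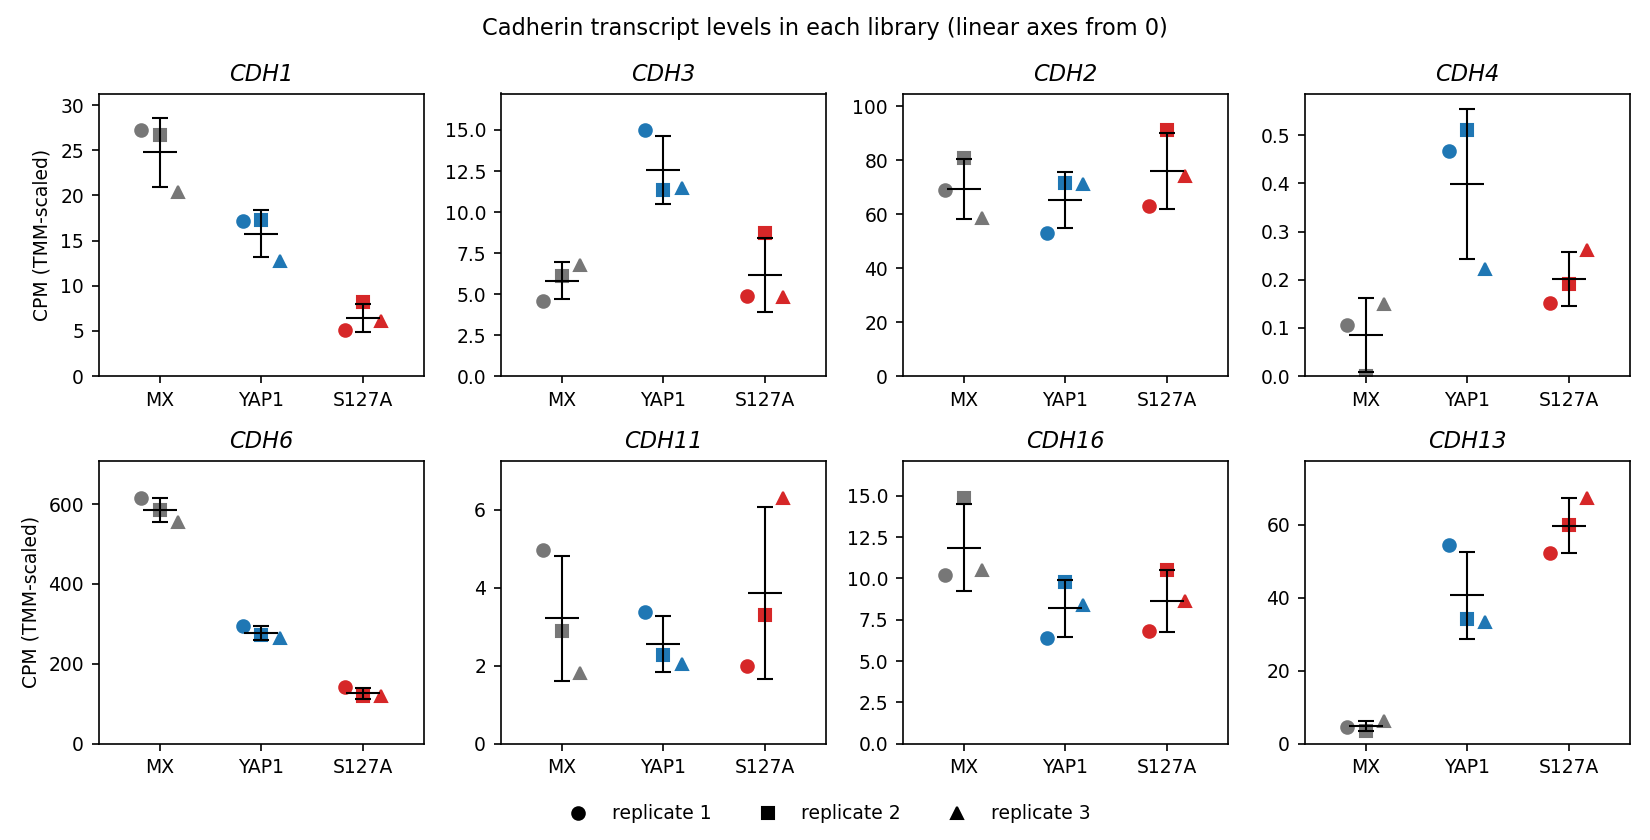
Each panel gives 1 cadherin in CPM, on a linear axis from 0, for the 3 libraries of MX, YAP1 and YAP1-S127A (S127A), with the replicate number as symbol and the mean ± SD as bar. CDH6 and CDH1 step down over the groups, CDH13 is high in both construct groups, CDH3 is high only in the YAP1 libraries, and CDH2, CDH11 and CDH16 overlap between at least one construct group and MX.

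**Figure D3:**
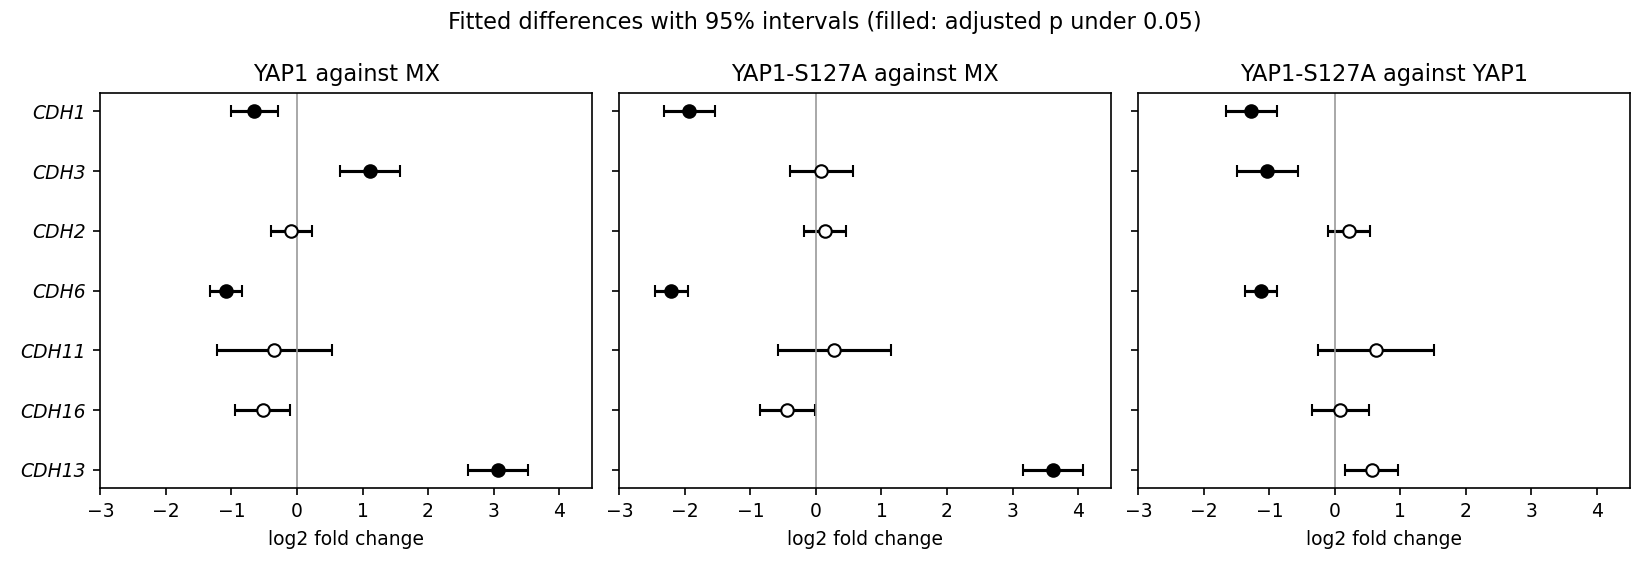
Points are log2 fold changes of the 7 tested cadherins from edgeR's fit with 95% intervals, which are not adjusted for the number of genes, and filled points have an adjusted p under 0.05. CDH1 and CDH6 lie left of 0 in all 3 panels, CDH13 lies right of 0 against MX at 3.06 and 3.62, and CDH3 is filled in the first and the third panel only.

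Counted together, YAP1 against MX called 2 of the 7 tested cadherins higher and 2 lower, where 6.81% of all 15492 tested genes were called in either direction (3.23% higher and 3.58% lower). The 2 that rose were CDH3 and CDH13 and the 2 that fell CDH1 and CDH6, and the median log2 fold change of the 7 was -0.34, against 0.00 over all tested genes. Libraries of the groups did not overlap for 5 of the 7 (CDH16 being the fifth), against 24.1% of all tested genes. For YAP1-S127A against MX, 1 rose (CDH13) and 2 fell (CDH1 and CDH6), where 18.4% of all genes were called, 9.53% higher and 8.84% lower. The 3 called were also those whose libraries did not overlap, against 32.6% of all genes. The median of the 7 was 0.08, against 0.00 over all genes. Both comparisons use the same MX libraries. For YAP1-S127A against YAP1, 3 were lower (CDH1, CDH3 and CDH6), where 0.839% of all genes were lower, 1.13% higher and 1.97% called in either direction. Libraries did not overlap for these 3, against 19.6% of all genes. None was higher by edgeR, DESeq2 or limma-voom (0 calls each), and 1, CDH13, was higher at an unadjusted p under 0.05. The median of the 7 was 0.09, against 0.01 over all genes. The YAP1-S127A libraries held less YAP1 transcript than the YAP1 libraries (log2 fold change -0.83, edgeR adjusted p = 0.00383). CDH1, CDH3 and CDH6 were lower in them as well. Without YAP1-S127A replicates 1 and 3, the libraries richest in mitochondrial reads, edgeR called 4, 3 and 1 cadherins in the 3 comparisons, with CDH6 the 1 called between the constructs (-1.22, adjusted p = 0.00213).

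Beneath the membrane, catenins link classical cadherins to actin, and nectins are a second adhesion system of the same junctions. Of 17 listed partners 13 were tested. With YAP1, 1 was higher and 1 lower, with YAP1-S127A 3 were higher and 5 lower, and between the constructs 0 passed by edgeR or limma-voom, while DESeq2 called 1 higher. Over all tested genes edgeR called 6.81% with YAP1, 18.4% with YAP1-S127A and 1.97% between the constructs. At an unadjusted p under 0.05 edgeR gave 3 higher and 5 lower of the 13 between the constructs, where 12.3% of all tested genes passed that threshold. The median log2 fold changes were -0.14, -0.17 and -0.23, against 0.00, 0.00 and 0.01 over all genes.

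NECTIN1, a nectin of adherens junctions, fell from 17.5 ± 3.24 CPM (SD, n = 3) in MX to 8.0 ± 0.937 CPM with YAP1-S127A (log2 fold change -1.14, SE 0.17, edgeR adjusted p = 7.65e-05). With YAP1 it fell by 0.64 on the log2 scale (adjusted p = 0.0189), which was lost without MX replicate 3 or YAP1 replicate 1 or 2 (adjusted p = 0.0795 to 0.131). NECTIN3, another nectin, rose from 14.3 ± 1.40 to 28.3 ± 4.85 CPM with YAP1-S127A (0.99, SE 0.15, adjusted p = 0.000125). Its rise with YAP1 was 0.53 (adjusted p = 0.0421), and was lost without replicate 2 or 3 of either MX or YAP1 (0.0514 to 0.211), with libraries scaled to total counts (0.120), with the mitochondrial share as covariate (0.0611) and by limma-voom (0.0575). LIMA1, an actin-binding protein that joins the catenin complex, rose from 33.8 ± 6.44 to 60.8 ± 2.83 CPM with YAP1-S127A (0.84, adjusted p = 0.000108). MAGI1, a junctional scaffold, fell by 0.68 with YAP1-S127A (adjusted p = 0.00874), lost without YAP1-S127A replicate 3 (0.0731) and with the mitochondrial share as covariate (0.177). The other partners called with YAP1-S127A, named here after their values were seen, were γ-catenin (JUP, -0.45, adjusted p = 0.0220), p120-catenin (CTNND1, -0.41, 0.0288) and its relative ARVCF (-0.77, 0.0138), which fell, and NECTIN2 (0.47, 0.0323), which rose. Each of these 4 calls was lost with the mitochondrial share as covariate (0.0541 to 0.412). Left-out libraries ended the call of JUP (MX replicate 2 or 3, YAP1-S127A replicate 3, 0.0606 to 0.151) and of ARVCF (MX replicate 3, YAP1-S127A replicate 2 or 3, 0.0549 to 0.0740). They also ended those of CTNND1 (0.0598 to 0.164) and NECTIN2 (0.0761 to 0.155), in both cases without MX replicate 1 or 3 or YAP1-S127A replicate 2 or 3. Total-count scaling ended the call of NECTIN2 too (0.317). β-catenin (CTNNB1) and α-catenin (CTNNA1) passed in none of the 3 comparisons, with log2 fold changes of 0.29, 0.05 and -0.24 for CTNNB1 (adjusted p = 0.148, 0.833 and 0.395) and -0.16, -0.29 and -0.13 for CTNNA1 (0.546, 0.118 and 0.740).

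Among 12 listed regulators of cadherin genes, 7 were tested. They include SNAI1, SNAI2, ZEB1 and ZEB2, which are known as repressors of CDH1, and none of these 4 passed in any comparison by edgeR (0 calls). The nearest was SNAI2, at 0.933 ± 0.224 CPM (SD, n = 3) in MX and 1.78 ± 0.323 CPM in the YAP1-S127A libraries, which did not overlap (log2 fold change 0.94, 95% interval 0.18 to 1.69, unadjusted p = 0.0178, edgeR adjusted p = 0.0797). TWIST1, a mesenchymal factor that is also known as a repressor of CDH1, rose with YAP1-S127A (log2 fold change 0.62, edgeR adjusted p = 0.0307). That call was lost without MX replicate 1 or YAP1-S127A replicate 2 or 3 (0.0863 to 0.125), scaled to total counts (0.156) and with the mitochondrial share as covariate (0.105). With YAP1, 0 of the 7 were higher and 1 lower, with YAP1-S127A 1 was higher and 1 lower. Calls in either direction made up 6.81% and 18.4% of the whole tested set in these comparisons. Between the constructs edgeR and limma-voom called 0 and DESeq2 1, and 1 was at an unadjusted p under 0.05 by edgeR. The shares of the whole set there were 1.97% for edgeR's calls and 12.3% for the unadjusted threshold.

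Of 10 genes that cut or degrade cadherins, among them the sheddase ADAM10 and the γ-secretase subunits, all were tested and 0 were called by edgeR or limma-voom in any of the 3 comparisons. DESeq2 called 1 of them, lower with YAP1, and at an unadjusted p under 0.05 edgeR gave 2 in each comparison, where 19.8%, 31.3% and 12.3% of all tested genes passed that threshold with YAP1, with YAP1-S127A and between the constructs.

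Of 44 other listed genes of the cadherin superfamily, 22 were tested. With YAP1, 0 were higher and 2 lower, with YAP1-S127A 3 were higher and 2 lower, and between the constructs 1 was higher and 0 lower, where 6.81%, 18.4% and 1.97% of all tested genes were called. The counts of the 22 are near these shares. At an unadjusted p under 0.05 edgeR gave 3 higher and 2 lower of the 22 with YAP1, and 5 and 5 with YAP1-S127A. Between the constructs it gave 3 higher and 0 lower. Of all tested genes 19.8%, 31.3% and 12.3% passed that threshold in these comparisons. DESeq2 and limma-voom called 0 higher with YAP1 and 0 lower between the constructs. CLSTN2, a calsyntenin, fell from 28.6 ± 4.73 CPM (SD, n = 3) in MX to 4.59 ± 0.992 CPM in the YAP1 libraries (log2 fold change -2.64, edgeR adjusted p = 1.01e-06) and to 6.12 ± 2.32 CPM in the YAP1-S127A libraries (-2.23, adjusted p = 1.22e-06). PCDH9, a protocadherin, rose with YAP1-S127A from 0.892 ± 0.0413 to 3.57 ± 0.480 CPM (log2 fold change 2.00, adjusted p = 4.37e-05). It was also higher than with YAP1 (1.27, adjusted p = 0.0151), lost without replicate 2 or 3 of either construct group (0.0502 to 0.103). Calls closer to the threshold were those of CDHR2, FAT4 and CDH24. CDHR2 stayed under 1 CPM and fell with YAP1 (-1.73, adjusted p = 0.0366). It was also called lower with YAP1-S127A (-1.44, edgeR adjusted p = 0.0482), which is given after its value was seen. FAT4, an atypical cadherin, rose with YAP1-S127A (1.01, adjusted p = 0.0259), as did CDH24 (0.49, adjusted p = 0.0375). The fall of CDHR2 with YAP1 was lost in 6 of the 9 fits that left out 1 library (adjusted p = 0.0505 to 0.154), the rise of FAT4 in 4 (0.0534 to 0.166) and that of CDH24 in 5 (0.0590 to 0.145).

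Of the 8 members, 5 lie on chromosome 16, and the other 3 on chromosomes 5, 18 and 20. The 712 tested genes of chromosome 16 had median log2 fold changes of -0.04, -0.02 and 0.02 in the 3 comparisons, and those of chromosome 5 (730 genes) of -0.01, 0.00 and 0.02. The 3 nearest tested protein-coding genes on each side were followed. Of these 6 around CDH13, none was called in any comparison (0 by edgeR), and their log2 fold changes lay between -0.11 and 0.59. Around CDH11, which was not called, 0 of 6 were called by edgeR. Around CDH2 and CDH16, also not called, the called neighbours are named after their values were seen. For CDH2 they were CHST9, 766 kilobases away, and the desmosomal cadherins DSC3 and DSG2, 2813 and 3321 kilobases away. With YAP1-S127A, CHST9 (1.01, edgeR adjusted p = 0.00146), DSC3 (1.01, adjusted p = 0.000633) and DSG2 (0.45, adjusted p = 0.0206) rose. DSC3 also rose with YAP1 (0.71, adjusted p = 0.0235). CHST9 was lost with the mitochondrial share as covariate (0.0933). DSG2 was lost with that covariate (0.271), with total-count scaling (0.433) and without MX replicate 3 or YAP1-S127A replicate 3 (0.0967 to 0.117). The rise of DSC3 with YAP1 was lost without replicate 2 or 3 of either group (0.0503 to 0.168). Beside CDH16, RRAD rose with YAP1-S127A (1.94, adjusted p = 0.0205), lost without MX replicate 1 or 3 (0.0542 to 0.0759) and with no filter on low counts (0.0513). Around CDH1 and CDH3, the genes PRMT7, ZFP90, TANGO6 and CHTF8 were not called. HAS3, a hyaluronan synthase 270.0 kilobases beyond CDH1, fell with YAP1-S127A (-0.78, SE 0.13, edgeR adjusted p = 0.000231). It was also lower than with YAP1 (-0.60, adjusted p = 0.0152), a call lost without replicate 2 or 3 of either construct group (0.0642 to 0.119). TANGO6, which starts 8.06 kilobases after CDH1, had log2 fold changes of 0.21, 0.20 and -0.01. PDZD2, 310 kilobases from CDH6, was scarce, at 0.676 ± 0.401 CPM (SD, n = 3) in MX and 3.55 ± 0.522 CPM with YAP1-S127A. It rose by 2.31 on the log2 scale (edgeR adjusted p = 9.69e-05), opposite to CDH6. Its rise with YAP1 was 1.36 (adjusted p = 0.0247), lost without MX replicate 2 or 3 or any YAP1 library (0.0529 to 0.115). MYO10, 14257.5 kilobases from CDH6 across a stretch with few tested genes, rose with YAP1-S127A by 0.42 (adjusted p = 0.0275). That call was lost without MX replicate 2 or 3 or any YAP1-S127A library (0.0527 to 0.123). The genes that overlap CDH1, CDH2, CDH3, CDH6 or CDH13 in the table had at most 47 counts over the 9 libraries together, against 1451 to 64189 for these cadherins. Whether reads were shared between them was not tested.

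**Figure D4:**
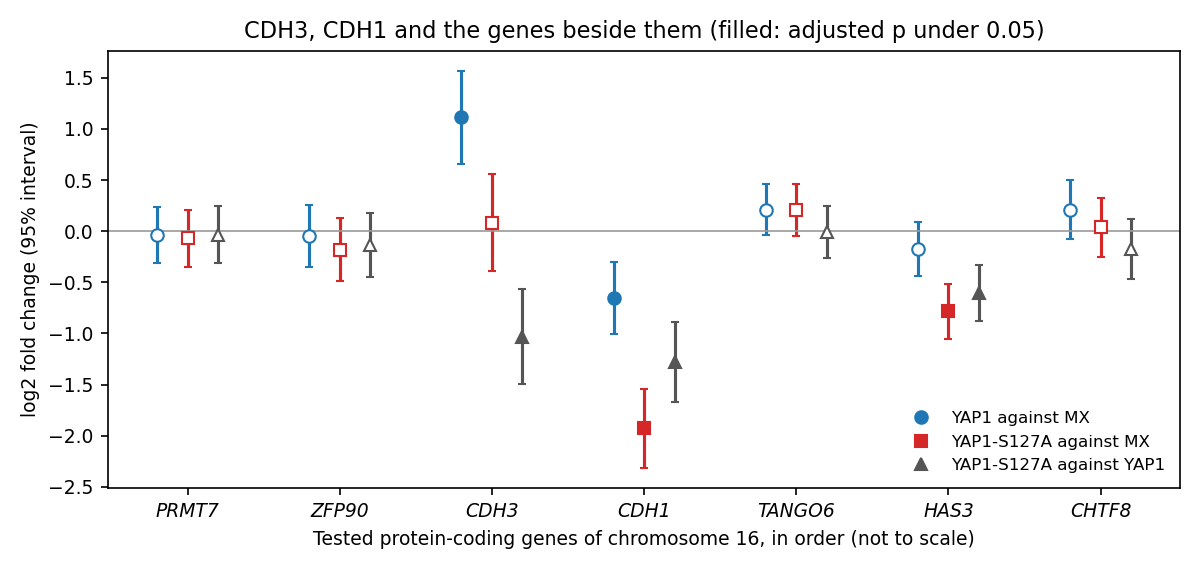
The tested protein-coding genes around CDH3 and CDH1 are drawn in their order on chromosome 16, spaced evenly and not to scale, with log2 fold changes and 95% intervals from edgeR's fit for the 3 comparisons. CDH3 and CDH1, 14.6 kilobases apart, were called in opposite directions for YAP1 against MX at 1.11 and -0.65, and both were lower with YAP1-S127A than with YAP1.

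Likeness of pattern was measured as Pearson's r of log2 CPM over the 9 libraries among 9518 abundant protein-coding genes, as a description without a test, since the libraries share their 3 groups. Closest to CDH6 were SERPINA1 (r = 0.990), the inhibitor of elastase, CLDN2 (r = 0.990), a claudin of the proximal tubule, and LAMA4 (r = 0.988), a laminin chain. SERPINA1 went from 202 CPM in MX to 97.2 CPM in the YAP1 group and 48.5 CPM in the YAP1-S127A group, and LAMA4 from 333 to 171 and 96.4 CPM. Closest to CDH13 were ASB1 (r = 0.991), AOX1 (r = 0.988), an aldehyde oxidase, and WNT7B (r = 0.982), a Wnt ligand. AOX1 went from 6.73 to 29.4 and 45.7 CPM, while ASB1 moved over a far smaller range, from 20.6 to 29.8 and 32.2 CPM. For CDH1 they were NASP (r = 0.993), a histone chaperone, SRSF8 (r = 0.991) and LRIG3 (r = 0.972), and NASP went only from 99.6 to 86.5 and 67.4 CPM. For CDH3 they were PER1 (r = 0.971), a clock gene, NCK2 (r = 0.935), an adaptor protein, and CSTF2 (r = 0.913). PER1 was at 13.8 CPM in MX, at 18.4 CPM in the YAP1 group and at 14.5 CPM in the YAP1-S127A group.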

How the data were processed

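The authors deposited 1 table of raw, whole-number counts of reads, with a row for each gene and a column for each library. The submitters' processing notes list Salmon 1.9.0, HISAT2 and Cufflinks without their roles, and a mouse build, GRCm39, although the gene identifiers are human. The sources used here do not say which program counted the reads, with which strand setting or on which human build. The gene length deposited beside the counts, in bases, was used only for CPM per kilobase.

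From the counts, genes were kept by filterByExpr, scaled by TMM and fitted over all 9 libraries with group as the only term in edgeR 4.0.16 (R 4.3.3, robust quasi-likelihood). For each of 3 contrasts, p-values were adjusted by Benjamini-Hochberg over the 15492 genes tested, and genes with an adjusted p under 0.05 were called. SEs were derived from the fold change and its F value, and intervals are 95%. Log2 CPM used a prior count of 2.

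The cadherins, gene lists and tests were chosen with earlier results of these data known. All 8 cadherins are named. Of other lists up to 4 called genes per comparison with the smallest p could be named. So could the 3 nearest tested protein-coding genes on each side where called. Per called cadherin, 3 genes of most like pattern (mean log2 CPM of at least 3) were named. Alternatives were other scalings, filters and gene sets, the mitochondrial share as covariate, DESeq2 1.42.0, limma-voom (limma 3.58.1), only the groups compared, the replicate number as block and each library left out. YAP1-S127A reduced to replicate 2 was added after seeing the data. The fit was tested on simulated counts. The result of 1 gene in the lists is not reported here. No human sequences were used here. Intervals and floors cover counting error or the spread between libraries only.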

Additional observations from a re-analysis of the deposited data

How the results depend on the processing

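CDH6 and CDH13 against MX, CDH6 between the constructs, CDH3 with YAP1 and CDH1 with YAP1-S127A against MX kept direction and call under every alternative run. With YAP1-S127A reduced to replicate 2, cadherins called between the constructs went from 3 to 1. Leaving out 1 library gave 3 to 4 called cadherins for YAP1 against MX, 3 in each fit for YAP1-S127A against MX, and 2 to 3 between the constructs. All genes called numbered 1055, 2845 and 305 with all libraries. Leaving out 1 library gave 601 to 1423 for YAP1 against MX, lowest without YAP1 replicate 3 and next without YAP1 replicate 2 (639). It gave 1847 to 3079 for YAP1-S127A against MX, lowest without YAP1-S127A replicate 3. Between the constructs it gave 126 to 465, with 126 and 188 without YAP1-S127A replicates 3 and 2, 189, 166 and 144 without YAP1 replicates 1, 2 and 3, and 465 without MX replicate 1. For YAP1-S127A against MX the calls were 4447 scaled to total counts (611 higher and 3836 lower, against 1476 and 1369), 1405 with the mitochondrial share as covariate and 1278 with replicate 2 alone. Between the constructs they were 616 scaled to total counts (113 higher and 503 lower, against 175 and 130), 520 without a filter, 475 by DESeq2, 478 with only the groups compared and 151 with replicate 2 alone. For YAP1 against MX, total counts gave 311 higher and 679 lower, against 500 and 555. The cause was not tested.

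Signs reversed only for cadherins that had not passed. With total-count scaling the median log2 fold change over all genes was -0.28 for YAP1-S127A against MX and -0.20 between the constructs. There, CDH2 (-0.12) and CDH3 (-0.17) for YAP1-S127A against MX and CDH16 (-0.096) between the constructs turned negative. Leaving out 1 library spread CDH2 from -0.20 to 0.043 and CDH11 from -0.65 to 0.14 for YAP1 against MX. It spread CDH2 from -0.016 to 0.26, CDH3 from -0.26 to 0.25 and CDH11 from -0.28 to 0.76 for YAP1-S127A against MX, and CDH16 from -0.080 to 0.22 between the constructs.

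Libraries share replicate numbers across groups, but nothing in the labels ties them. Deviations of same-numbered libraries correlated from -0.178 to 0.204, with 1 of 9 pairs over 0.1. Those of differently numbered libraries of different groups correlated from -0.254 to 0.207, with 3 of 18 pairs over 0.1. Of the 9 libraries, 3 correlated best with one of their own number. With the replicate number as a block, 1428, 3426 and 472 genes were called in the 3 comparisons, and CDH16 passed against MX with YAP1 (-0.53, adjusted p = 0.0283) and YAP1-S127A (-0.45, adjusted p = 0.0370). Depth limits CDH4, with at most 9 counts in a library.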
